A study of Mus musculus with 15 samples.

Results

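The genes described here are 9 genes of the thick ascending limb of the loop of Henle, taken by symbol: Umod, Egf, Slc12a1, Kcnj1, Bsnd, Cldn10, Cldn16, Cldn19 and Tmem207. All 9 were listed in each of 3 comparisons of kidney RNA, among 23393 gene symbols. Knockout mice (ERRg fl/fl;Sim1-Cre) carried floxed alleles of Esrrg, the gene of the nuclear receptor ERRγ, and the Sim1-Cre transgene. Controls were littermates without Cre that had these floxed alleles too (ERRg fl/fl), and all mice were C57BL/6. The labels give 3 knockout and 2 control males at 3 weeks of age, 2 knockout and 2 control females at 3 weeks, and 3 knockout and 3 control males at 3 months. The source names of the 3 knockouts of 3 months say female where title and sex label say male, and they are taken as male. Recombination is limited to cells with Sim1-driven Cre, and other kidney cells keep the gene. Kidney RNA joins many cell types, so fewer cells of a type and less RNA per cell cannot be told apart.

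The thick ascending limb reabsorbs salt without water. The cotransporter NKCC2 (Slc12a1) takes up sodium, potassium and chloride from the tubular fluid, the channel ROMK (Kcnj1) returns potassium to it, and barttin (Bsnd) serves the exit of chloride towards the blood. The voltage this creates drives cations between the cells, sodium through pores of claudin-10 (Cldn10) and calcium and magnesium through those of claudin-16 and claudin-19 (Cldn16, Cldn19). The same cells secrete uromodulin (Umod), the main protein of normal urine, and make the precursor of epidermal growth factor (Egf). Tmem207 encodes a transmembrane protein and lies beside Cldn16.

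Among the promoters matched to these genes, that of Tmem207 held the letters of an ERR response element. The promoters of Tmem207, of its neighbour Cldn16, of Egf and of Umod are printed because the first 3 carry the contrast described further on and Umod is the most abundant of the 9. Each runs 5′ to 3′ from 250 bases before to 50 bases after a RefSeq start (GRCm38.p6), and capitals mark matches to the motifs searched.
Tmem207, chr16:26526722-26527021, minus strand: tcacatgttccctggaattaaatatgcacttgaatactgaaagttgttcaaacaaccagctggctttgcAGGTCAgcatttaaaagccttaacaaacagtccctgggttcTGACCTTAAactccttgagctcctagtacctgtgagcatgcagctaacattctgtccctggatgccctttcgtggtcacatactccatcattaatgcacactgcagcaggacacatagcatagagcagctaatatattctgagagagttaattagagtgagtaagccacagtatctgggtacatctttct
Cldn16, chr16:26462885-26463184, plus strand: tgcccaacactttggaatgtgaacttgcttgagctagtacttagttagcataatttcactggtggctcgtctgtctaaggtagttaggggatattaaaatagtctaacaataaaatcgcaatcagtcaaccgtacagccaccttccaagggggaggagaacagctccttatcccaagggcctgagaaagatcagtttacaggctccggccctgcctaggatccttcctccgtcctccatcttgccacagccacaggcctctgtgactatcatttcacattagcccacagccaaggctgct
Egf, chr3:129755273-129755572, minus strand: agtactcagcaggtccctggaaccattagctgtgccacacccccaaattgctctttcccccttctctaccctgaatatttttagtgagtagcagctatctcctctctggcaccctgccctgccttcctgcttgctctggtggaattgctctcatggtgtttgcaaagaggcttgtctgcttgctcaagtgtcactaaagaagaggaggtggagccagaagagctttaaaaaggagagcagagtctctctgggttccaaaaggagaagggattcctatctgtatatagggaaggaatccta
Umod, chr7:119479213-119479512, minus strand: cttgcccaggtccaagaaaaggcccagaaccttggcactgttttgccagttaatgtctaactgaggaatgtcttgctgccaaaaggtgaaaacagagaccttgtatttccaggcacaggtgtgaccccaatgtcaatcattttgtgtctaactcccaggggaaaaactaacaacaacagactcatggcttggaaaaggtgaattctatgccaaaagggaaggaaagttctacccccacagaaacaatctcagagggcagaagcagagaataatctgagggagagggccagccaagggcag

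In Tmem207 the capitals TGACCTTAA are the reverse complement of a match to TNAAGGTCA, a form of the ERR response element, and begin 140 bases before the start. The capitals AGGTCA, the hexamer that many nuclear receptors bind, begin 181 bases before it. Both strands were searched for TNAAGGTCA and for AGGTCA, which lies within it. RefSeq promoters were matched for 8 of the 9 genes, with 11 starts. TNAAGGTCA was in 1 of the 11, against 1.28% of all 32851 promoters, and AGGTCA in 1 of the 11, against 16.3%. The HNF1 site was in 0 of the 11, against 0.0609%. A match describes letters in this window and shows no binding.

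Esrrg, the targeted gene (chromosome 1, bases 187608791 to 188214885, plus strand), was higher at 3 weeks by the sign of its fold change. Its log2 fold change was 0.82 ± 0.20 (SE; DESeq2 adjusted p = 0.000613) for 3-week males and 1.04 ± 0.17 (adjusted p = 1.70e-08) for 3-week females in the authors' deposited tables. For 3-month males the authors' deposited table lists -0.87 ± 0.57 without a p-value. The floxed exon is unknown here and reads outside the deleted part may be counted, so the labels and the deletion remain unchecked by this gene. The headers do not say which genotype was divided by which. It is taken as knockout over control, since the title of the series links ERRγ to reabsorption and genes of reabsorption have negative values. The sign of Esrrg at 3 weeks goes against that choice. The 9 genes are themselves genes of reabsorption, so their shared negative sign belongs to the choice and is no evidence for it. Were the ratio the other way up, each higher or lower stated here would change places.

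The tables hold no value per library. Sums of the mean normalized counts were 47.5, 33.9 and 18.8 in units of 1e6 for 3-week males, 3-week females and 3-month males. Each table was normalized separately, so mean counts of different tables are not on one scale. The smallest steps of the lowest means fitted 4, 4 and 5 libraries, where the labels give 5, 4 and 6, and no source used here says which labelled kidneys entered. A gene is called when its adjusted p over all genes tested in its table is under 0.05, and its p reflects only how far the libraries used varied.

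At 3 weeks, knockout kidneys had less RNA of the salt transport genes, of uromodulin and of Egf and far less of Tmem207, while Cldn16 and Cldn19 did not pass the test. Of the 8 genes with a p-value in 3-week males 6 fell and 0 rose, where 8.52% of all 14657 tested genes fell and 17.3% were called in either direction. Of the 8 in 3-week females also 6 fell and 0 rose, where 10.4% of all 14146 fell and 18.7% were called. At 3 months 1 of the 9, Cldn10, had a p-value and fell, where 27.8% of all 12828 fell and 57.5% were called. Fold changes were negative for 8, 8 and 7 of the 9 genes in 3-week males, 3-week females and 3-month males, against 50.1%, 48.7% and 49.8% of all genes with a status OK or Outlier. The median of the 8 tested was -1.10 in 3-week males and -1.12 in 3-week females, and that of all tested genes was -0.006 and 0.009.

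**Figure D1:**
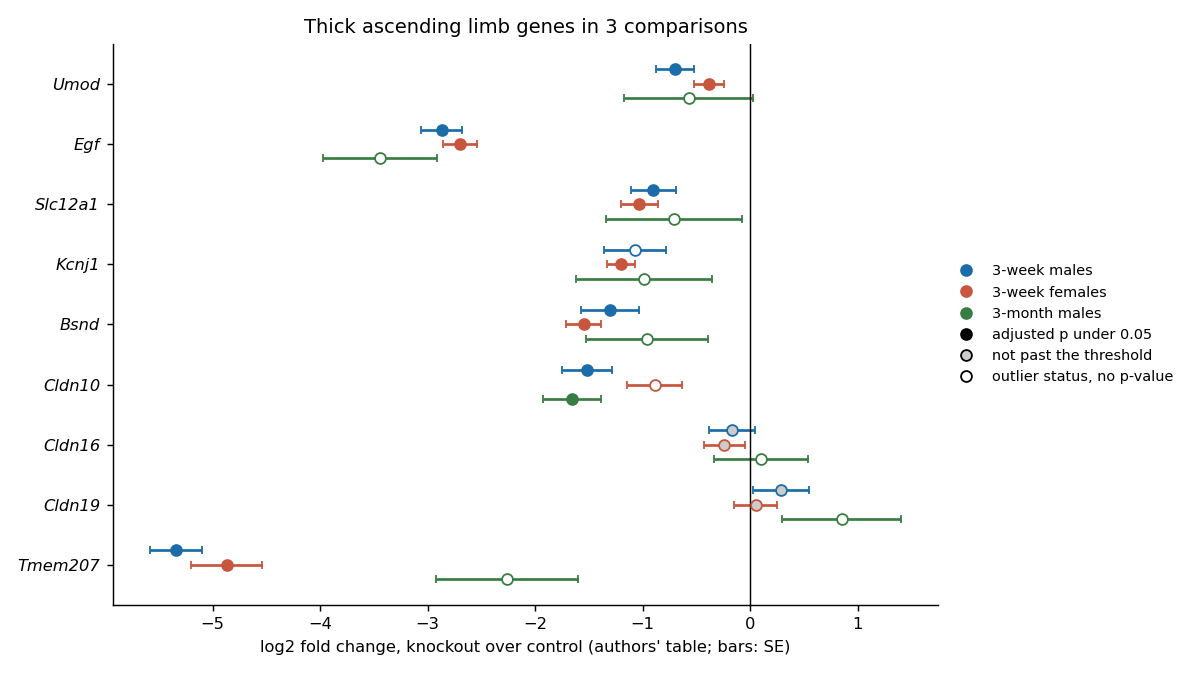
Log2 fold change, knockout over control, of the 9 genes (rows) in 3-week males, 3-week females and 3-month males (colours) from the authors' deposited tables, with bars of 1 standard error. Filled points passed an adjusted p of 0.05, grey ones did not, and open ones have no p-value; Tmem207 and Egf lie farthest left at 3 weeks, at -5.34 and -2.87 in males, and 8 of the 9 points of 3-month males are open.

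Uromodulin was the most abundant of the 9 and fell the least of those called. Umod (chromosome 7, bases 119462711 to 119479282, minus strand; GENCODE M21, GRCm38) had a mean normalized count over both genotypes of 117779 for 3-week males, 89031 for 3-week females and 52615 for 3-month males in the authors' deposited tables. Its log2 fold change in 3-week males was -0.70 ± 0.18 (SE; adjusted p = 0.00137) per the authors' deposited table, or 0.615 of the control level. In 3-week females it was -0.38 ± 0.14 (adjusted p = 0.0444) per the authors' deposited table, a call close to the threshold. That call was lost at a threshold of 0.01 and with fold changes scaled to total counts (adjusted p = 0.246). This scaling adds a constant to all fold changes of a table, worked out from sums of implied group means, since no library could be scaled. The call was also lost with low means and outliers all tested (adjusted p = 0.0542). Adjusted p ranged from 0.0387 to 0.246 over 6 alternatives. For 3-month males the authors' deposited table lists -0.57 ± 0.60, with a 95% interval from -1.75 to 0.60. The gene on either side is transcribed from the same strand: Gp2, a relative of uromodulin, was at -0.88 ± 0.21 (adjusted p = 0.000582) and Pdilt at -1.10 ± 0.27 (adjusted p = 0.000919) in 3-week males in the authors' deposited table. In 3-week females Gp2 was at -0.39 ± 0.28 (adjusted p = 0.357), not called, and Pdilt at -1.12 ± 0.25 (adjusted p = 0.000133) in the authors' deposited table. Among 3-month males Gp2 was at -1.40 ± 0.45 (adjusted p = 0.00427) and Pdilt at -0.85 ± 0.28 (adjusted p = 0.00564) in the authors' deposited table.

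Egf, whose product is shed into the urine, ranked among the genes that fell most at 3 weeks. It lies on chromosome 3, bases 129677565 to 129755316, minus strand, and the authors' deposited tables give it means of 69835, 53465 and 24725 normalized counts for 3-week males, 3-week females and 3-month males. Its log2 fold change in 3-week males was -2.87 ± 0.19 (SE; adjusted p = 1.15e-48) per the authors' deposited table, rank 27 from the lowest. In 3-week females it was -2.70 ± 0.16 (adjusted p = 1.25e-58) per the authors' deposited table, rank 24. The 3-month value was -3.44 ± 0.53 in the authors' deposited table, without a p-value and with a 95% interval from -4.49 to -2.39. An antisense gene that overlaps Egf, 6330410L21Rik, was called in the same direction in all 3, at -2.15 ± 0.36, -2.47 ± 0.38 and -2.40 ± 0.47 in the authors' deposited tables of 3-week males, 3-week females and 3-month males. No source used here says whether the counting used strand, so reads of this pair cannot be told apart.

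The genes of ion entry, potassium return and chloride exit had fold changes near -1 on the log2 scale at 3 weeks. Slc12a1 (chromosome 2, bases 125152505 to 125230002, plus strand), whose product is the target of loop diuretics, was at -0.90 ± 0.21 on the log2 scale (adjusted p = 0.000360) among 3-week males and -1.03 ± 0.17 (adjusted p = 9.70e-08) among 3-week females in the authors' deposited tables. Kcnj1 (chromosome 9, bases 32372493 to 32399197, plus strand) was at -1.07 ± 0.29 among 3-week males, without a p-value, and at -1.20 ± 0.13 (adjusted p = 6.83e-18) among 3-week females in the authors' deposited tables. Bsnd (chromosome 4, bases 106483456 to 106492283, minus strand) was at -1.30 ± 0.27 (adjusted p = 4.09e-05) among 3-week males and -1.55 ± 0.16 (adjusted p = 5.70e-21) among 3-week females in the authors' deposited tables. In humans, loss of any of these genes is known to cause Bartter syndrome, a salt-wasting disease. Among 3-month males the authors' deposited table lists -0.71 ± 0.63 for Slc12a1, -0.99 ± 0.63 for Kcnj1 and -0.96 ± 0.57 for Bsnd, each without a p-value and with a 95% interval that holds 0.

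The claudins did not have like values. Cldn10 (chromosome 14, bases 118787908 to 118875489, plus strand) fell in both tables of males, at -1.66 ± 0.27 on the log2 scale (SE; adjusted p = 8.85e-09) at 3 months and -1.52 ± 0.23 (adjusted p = 2.26e-09) at 3 weeks per the authors' deposited tables. Among 3-week females the authors' deposited table lists -0.89 ± 0.26 for Cldn10, without a p-value. Cldn10 has separate first exons for an anion-selective and a cation-selective form, and a value per gene joins them. Cldn16 (chromosome 16, bases 26463135 to 26482765, plus strand) was at -0.17 ± 0.21 (adjusted p = 0.677) among 3-week males and -0.24 ± 0.19 (adjusted p = 0.429) among 3-week females in the authors' deposited tables. The 95% intervals of Cldn16 ran from -0.58 to 0.24 and from -0.61 to 0.14 in the authors' deposited tables. Those of Slc12a1 ran from -1.31 to -0.48 and from -1.37 to -0.69 in the same order, so they overlap in males. Umod lay within the interval of Cldn16 in 3-week females, at -0.38, and outside it in 3-week males, at -0.70. With fold changes scaled to total counts the value of Cldn16 in 3-week males was 0.01. Cldn19 (chromosome 4, bases 119255414 to 119262438, plus strand) was at 0.29 ± 0.26 (adjusted p = 0.521; interval from -0.21 to 0.79) among 3-week males and 0.05 ± 0.20 (adjusted p = 0.891; interval from -0.33 to 0.44) among 3-week females in the authors' deposited tables. Among 3-month males the authors' deposited table lists 0.10 ± 0.44 for Cldn16 and 0.85 ± 0.55 for Cldn19. Differences between genes of a table were not tested.

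Tmem207 and Cldn16 are neighbours on chromosome 16, on opposite strands, and lay far apart in fold change. Tmem207 (chromosome 16, bases 26503656 to 26526769, minus strand) lies 20890 bases from Cldn16. Its log2 fold change was -5.34 ± 0.24 (SE; adjusted p = 5.79e-105) among 3-week males and -4.87 ± 0.33 (adjusted p = 6.09e-46) among 3-week females per the authors' deposited tables, rank 2 and rank 4 from the lowest. These correspond to 0.0246 and 0.0342 of the control level. On the far side of Tmem207, Il1rap, a subunit of the interleukin-1 receptor, was at 0.06 ± 0.26 (adjusted p = 0.925) and 0.12 ± 0.19 (adjusted p = 0.738) in the authors' deposited tables of 3-week males and females. On the far side of Cldn16, Cldn1, a sealing claudin, was at 0.65 ± 0.25 (adjusted p = 0.0586) and 1.15 ± 0.11 (adjusted p = 1.05e-21) in the same order in the authors' deposited tables. Among 3-month males the authors' deposited table lists a mean of 81.0 normalized counts for Tmem207. Its log2 fold change there was -2.26 ± 0.66, without a p-value. Among 3-week males its mean was 740 in the authors' deposited table. The tables were normalized separately, so these means are not on one scale and do not measure a change in level.

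Mean counts per genotype can be worked out for 3-week females, where labels and steps both give 2 libraries a genotype, if the fold change is taken as the ratio of group means. Tmem207 came to 43 normalized counts in knockout and 1264 in control kidneys, and Egf to 14268 in knockout and 92663 in control kidneys. Umod came to 77504 in knockout and 100558 in control kidneys, and Slc12a1 to 35047 in knockout and 71750 in control kidneys. Kcnj1 came to 6272 in knockout and 14426 in control kidneys, Bsnd to 1680 in knockout and 4924 in control kidneys, and Cldn10 to 5767 in knockout and 10695 in control kidneys. Cldn16 stood at 593 in knockout and 698 in control kidneys, and Cldn19 at 3593 in knockout and 3459 in control kidneys. These means carry no error of their own and depend on the direction chosen for the ratio.

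**Figure D2:**
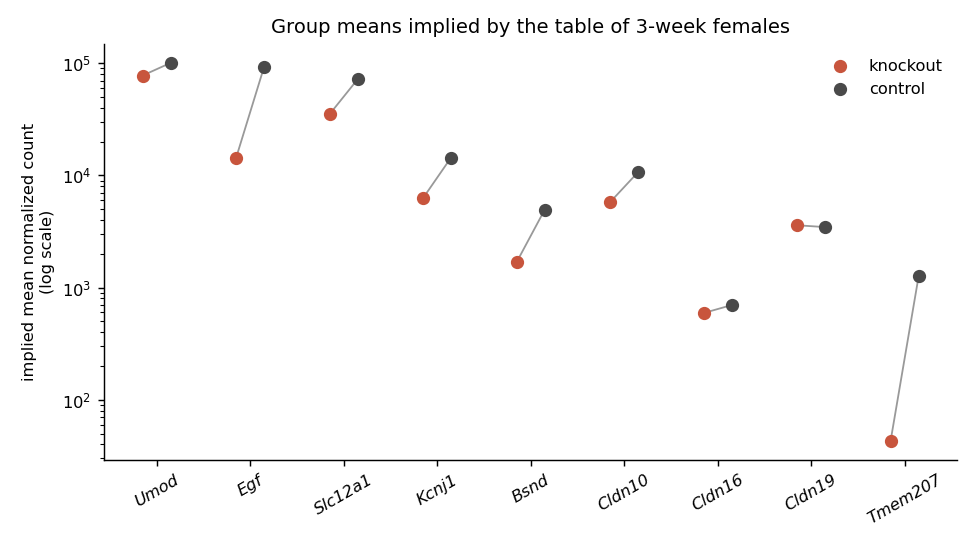
Mean normalized count (log axis) worked out for knockout (left, red) and control (right, grey) kidneys of 3-week-old females from the authors' mean and fold change of each of the 9 genes. The lines of Tmem207 (43 and 1264) and Egf (14268 and 92663) are the steepest, and those of Cldn16 and Cldn19 are nearly level.

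Levels of the 9 genes differed widely per length. Per 1e6 normalized counts and per kilobase of exon, over both genotypes, the level in 3-week males was 898 for Umod, 254 for Slc12a1, 130 for Egf, 85.8 for Kcnj1 and 80.0 for Cldn10. The levels of Bsnd, Cldn19, Cldn16 and Tmem207 on that scale were 36.9, 24.9, 16.0 and 5.79. Among 3-week females the order was the same except that Cldn10, at 93.8, stood before Kcnj1, at 91.7. Among 3-month males Umod was at 1013 per 1e6 per kilobase, Egf at 117 and Slc12a1 at 107, and Cldn16, at 9.96, stood before Cldn19, at 8.47. Without values per library the spread is unknown, so no neighbours in this order can be said to differ, and exon lengths are those of GENCODE M21.

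A difference between the sexes in the genotype effect at 3 weeks was not detected for the 7 genes with a p-value in both tables. The difference of the deposited log2 fold changes was tested for all 13737 such genes. These fold changes are moderated towards 0, perhaps to a different degree in each table. Of these 0 passed an adjusted p of 0.05, and 237 (1.73%) had an unadjusted p under 0.05. Without any difference a calibrated test would place a share of about 0.05 there. The test was therefore conservative here, and the 0 calls do not show that the sexes are alike. The male minus female difference was -0.33 ± 0.23 for Umod (SE; 95% interval from -0.78 to 0.12), -0.17 ± 0.25 for Egf (from -0.66 to 0.32) and 0.14 ± 0.27 for Slc12a1 (from -0.40 to 0.67). Bsnd differed by 0.26 ± 0.31 (from -0.36 to 0.87), Cldn16 by 0.07 ± 0.28 (from -0.49 to 0.62), Cldn19 by 0.24 ± 0.32 (from -0.40 to 0.87) and Tmem207 by -0.47 ± 0.41 (from -1.28 to 0.33). All 7 intervals hold 0, and that of Tmem207 is the widest. Kcnj1 and Cldn10 entered with outliers kept, where Kcnj1 differed by 0.13 ± 0.32 (from -0.50 to 0.77) and Cldn10, the largest difference of the 9, by -0.63 ± 0.35 (from -1.31 to 0.05) (unadjusted p = 0.0702, adjusted p = 1.000). Between 3 months and 3 weeks in males, Cldn10 alone had a p-value in both tables, and its difference was -0.13 ± 0.36 (from -0.83 to 0.57, adjusted p = 0.821). In that comparison 27.7% of 12355 genes passed an adjusted p of 0.05, and 37.6% had an unadjusted p under 0.05.

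At 3 months 8 of the 9 genes had the status Outlier and no p-value. Of all genes with a mean of at least 50, 11.3% had this status among 3-month males, against 4.37% among 3-week males and 6.18% among 3-week females. At 3 weeks it held 1 of the 9 in each sex, Kcnj1 in males and Cldn10 in females. Genes with the status had larger standard errors, with a median of 0.46 at 3 months against 0.19 for those with the status OK. The standard errors of Umod, Egf, Slc12a1 and Kcnj1 were 0.60, 0.53, 0.63 and 0.63 at 3 months, against 0.18, 0.19, 0.21 and 0.29 in 3-week males, in the authors' deposited tables. The sources used here do not state the rule behind the status. With such genes kept and a normal p of fold change over standard error, Egf (adjusted p = 8.63e-10) and Tmem207 (adjusted p = 0.00151) passed at 3 months beside Cldn10. Umod, Slc12a1, Kcnj1, Bsnd, Cldn16 and Cldn19 had adjusted p from 0.133 to 0.854 there. At 3 weeks Kcnj1 in males (adjusted p = 0.00316) and Cldn10 in females (adjusted p = 0.00639) passed as well.

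**Figure D3:**
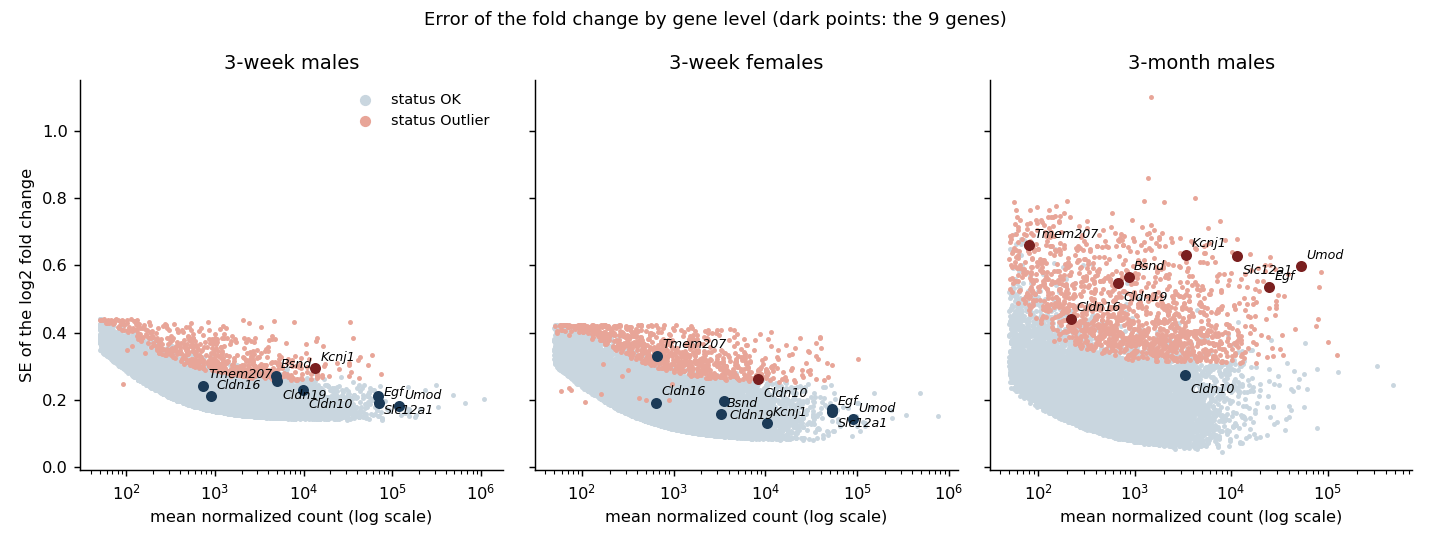
Standard error of the log2 fold change against the mean normalized count (log axis) of all genes with a mean of at least 50 in the authors' 3 tables, coloured by the authors' status, with the 9 genes as dark points. At 3 months 8 of the 9 lie among genes with the status Outlier, with Tmem207 at 0.66, and Cldn10, at 0.27, lies among those with the status OK.

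Among the partners of the 9 genes in ion transport, a few fell strongly at 3 weeks. Of 16 tested among 3-week males 6 fell and 1 rose, where 8.52% of all tested genes fell and 8.81% rose. Of 14 among 3-week females 7 fell and 1 rose, where 10.4% fell and 8.29% rose. The median log2 fold change was -0.44 among 3-week males and -0.37 among 3-week females. Kcnt1, a sodium-activated potassium channel, was at -3.85 ± 0.22 (adjusted p = 5.77e-66) among 3-week males in the authors' deposited table. Slc9a3, the apical sodium-proton exchanger, was at -2.17 ± 0.22 and Kcnj10, a basolateral potassium channel, at -0.95 ± 0.19 in the same males in the authors' deposited table (adjusted p = 1.71e-20 and 1.92e-05). At 3 months 9 of the 16 had no p-value, and of the 7 tested 3 fell and 2 rose, where 57.5% of all tested genes were called. Slc9a2, another sodium-proton exchanger, was at -1.76 ± 0.17 (adjusted p = 1.71e-24) at 3 months, against 0.23 ± 0.17 (adjusted p = 0.428) in males of 3 weeks, in the authors' deposited tables. The 3-month counts moved to 1 and 4 with fold changes scaled to total counts, and 12 fell with outliers kept.

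Junction genes were called higher where they were called. Of 9 tested among 3-week males 4 rose and 0 fell, where 8.81% of all tested genes rose. Of 8 among 3-week females 2 rose and 0 fell, where 8.29% rose, and of 9 at 3 months 8 rose and 0 fell, where 29.8% rose. Cldn4 was at 3.51 ± 0.30 at 3 months (adjusted p = 6.97e-31), against 1.50 ± 0.23 among 3-week males (adjusted p = 4.69e-09), in the authors' deposited tables. Cldn7 was at 2.64 ± 0.24 and Cldn3 at 2.89 ± 0.30 at 3 months, against 1.06 ± 0.17 and 1.17 ± 0.29 among 3-week males, in the authors' deposited tables. Cgn, the junction protein cingulin, was at 1.66 ± 0.24 at 3 months and Cldn8 at 0.92 ± 0.16 in the authors' deposited table (adjusted p = 3.65e-11 and 8.08e-08). Cldn3, Cldn4, Cldn7 and Cldn8 are known from the collecting duct. Markers of its principal cells were positive for 7 of 7 in each table, with 2 of 5, 0 of 1 and 3 of 4 tested called higher in 3-week males, 3-week females and 3-month males, and their part in the result was not tested.

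Regulators of NKCC2 and of the segment were called in both directions. Of 18 tested among 3-week males 6 fell and 1 rose, and of 16 among 3-week females 5 fell and 1 rose, where 8.52% and 10.4% of all tested genes fell. Of 11 at 3 months 2 fell and 5 rose, where 27.8% of all fell and 29.8% rose, so the calls there were about as frequent as among all genes; 6 fell with outliers kept. With fold changes scaled to total counts 3 rose among 3-week males, 4 among 3-week females, and 1 fell at 3 months. Gcgr, the glucagon receptor, fell in all 3, at -2.99 ± 0.26, -3.43 ± 0.19 and -3.34 ± 0.25 for 3-week males, 3-week females and 3-month males in the authors' deposited tables. Ppp1r1a, an inhibitor of a protein phosphatase, was at -2.33 ± 0.25 and Wnk4, a kinase that controls salt cotransporters, at -0.85 ± 0.20 among 3-week males in the authors' deposited table (adjusted p = 3.70e-18 and 0.000536). Maged2, mutated in humans with an antenatal form of Bartter syndrome, was at 1.41 ± 0.14 (adjusted p = 3.48e-21) at 3 months, against 0.41 ± 0.24 (adjusted p = 0.263) in males of 3 weeks, in the authors' deposited tables. Mal, a membrane protein that binds NKCC2, was at 1.34 ± 0.14 (adjusted p = 3.56e-20) at 3 months, against 0.23 ± 0.16 (adjusted p = 0.365) in males of 3 weeks, in the authors' deposited tables.

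Genes of uromodulin processing and of EGF and magnesium handling also had calls in both directions. Of 13 tested among 3-week males 3 fell and 2 rose, and of 12 among 3-week females 3 fell and 3 rose, where 17.3% and 18.7% of all tested genes were called. Of 11 at 3 months 5 fell and 3 rose, where 57.5% were called, and 5 rose with fold changes scaled to total counts. Pcbd1, an enzyme that recycles the cofactor tetrahydrobiopterin, was at -0.73 ± 0.16 (adjusted p = 9.03e-05) among 3-week males and -0.72 ± 0.09 (adjusted p = 1.05e-14) among 3-week females in the authors' deposited tables. Muc1, a mucin whose human mutations cause a tubular kidney disease as those of UMOD do, was at 3.08 ± 0.13 (adjusted p = 2.73e-126) at 3 months, against 0.86 ± 0.19 (adjusted p = 7.99e-05) in males of 3 weeks, in the authors' deposited tables. Fam111a was at 2.42 ± 0.22 at 3 months, against 0.92 ± 0.22 in males of 3 weeks, in the authors' deposited tables. Trpm7, a channel that passes magnesium, was at -1.41 ± 0.17 (adjusted p = 5.66e-15) and Adam10, a membrane protease, at 0.62 ± 0.08 (adjusted p = 2.01e-12) at 3 months in the authors' deposited table.

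In a list of transcription factors of the segment, which also holds Pkhd1, the gene of a ciliary membrane protein, the other 2 ERR receptors fell at 3 weeks and the other genes tested did not pass. Esrrb was at -1.75 ± 0.18 (adjusted p = 5.52e-19) among 3-week males and -1.93 ± 0.24 (adjusted p = 2.78e-13) among 3-week females in the authors' deposited tables. Esrra was at -0.88 ± 0.18 (adjusted p = 3.17e-05) and -0.76 ± 0.09 (adjusted p = 1.00e-14) in the same order in the authors' deposited tables. These were 2 of 10 tested in 3-week males and 2 of 11 in 3-week females, where 8.52% and 10.4% of all tested genes fell. In either direction 17.3% and 18.7% of all tested genes were called, close to the shares of the list. Irx3 was at -0.13 ± 0.19 and Tfap2b at -0.27 ± 0.22 in the males in the authors' deposited table. Sim1, whose promoter drives the Cre, had no p-value in 3-week males and was at 0.60 ± 0.26 (adjusted p = 0.0892) among 3-week females in the authors' deposited table. At 3 months 7 of 11 had no p-value, and Esrra, 1 of the 4 tested, was at -1.12 ± 0.25 (adjusted p = 2.11e-05) in the authors' deposited table. Of all genes tested at 3 months 27.8% fell, and 3 of the list fell with outliers kept.

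In the macula densa list, cells that adjoin the segment at the glomerulus, Pappa2 stood apart. This protease of growth factor binding proteins was at 5.40 ± 0.26 (adjusted p = 1.74e-93) among 3-week males and 5.60 ± 0.22 (adjusted p = 3.78e-136) among 3-week females in the authors' deposited tables, the highest fold change of all tested genes in each. It was the only one of 6 tested that was called in either sex, where 17.3% and 18.7% of all tested genes were called in males and females. At 3 months Pappa2 was at 3.34 ± 0.74 without a p-value in the authors' deposited table. Of 5 tested there 3 rose, Ptges at 1.30 ± 0.27, Ptgs2 at 2.70 ± 0.61 and Oxtr at 1.36 ± 0.54 in the authors' deposited table. Of all genes tested at 3 months 29.8% rose, and 1 of the list rose with a mean of at least 50. Nos1, a marker of these cells, was at 0.69 ± 0.43 (adjusted p = 0.310) among 3-week males in the authors' deposited table. At 3 months Nos1 was at -2.57 ± 0.74 with a mean of 4.89, the status Low and no adjusted p. With no filter on low means 1 of the list fell and 4 rose at 3 months. Ptgs2 and Oxtr had means of 12.3 and 12.4 there.

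**Figure D4:**
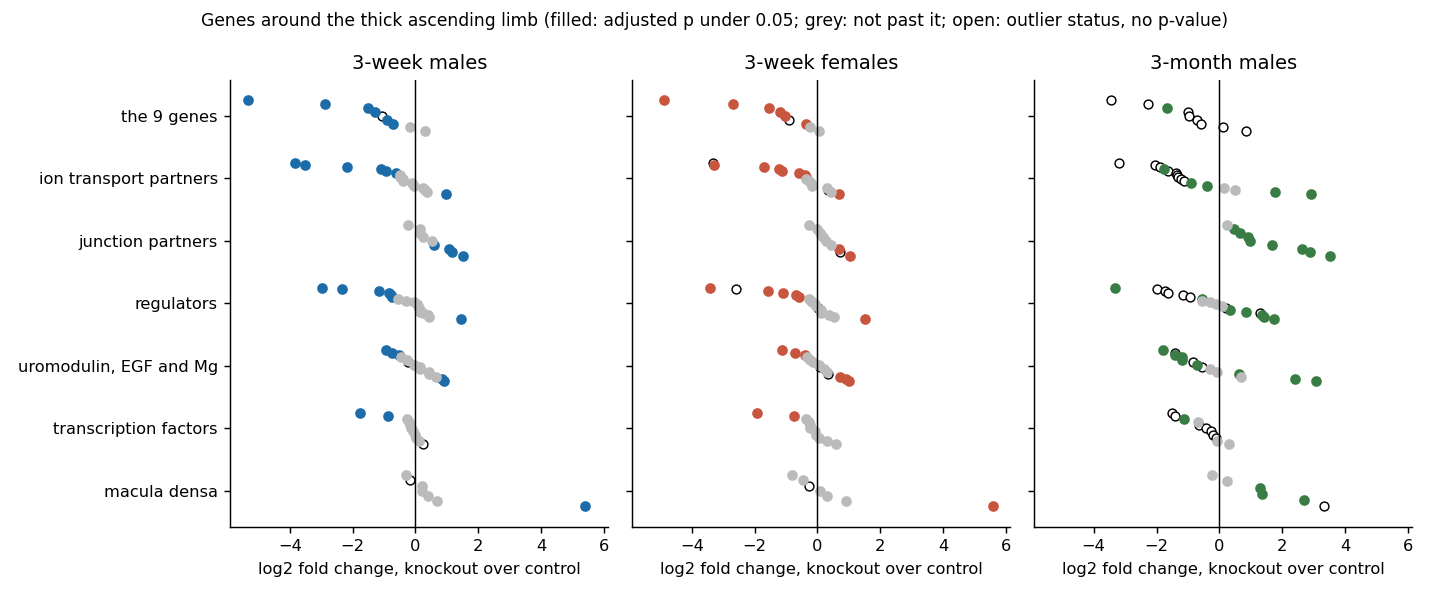
Log2 fold change, knockout over control, of the 9 genes and of 6 lists of genes around the thick ascending limb in 3-week males, 3-week females and 3-month males, from the authors' deposited tables, with 1 point a gene. Filled points passed an adjusted p of 0.05, grey ones did not, and open ones have no p-value; junction partners lie from 0.23 to 3.51 at 3 months, and Pappa2 lies alone at 5.40 and 5.60 at 3 weeks.

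Markers of other cell types were called along with the 9 genes. Proximal tubule markers fell in 8 of 12, 5 of 10 and 4 of 4 tested cases in 3-week males, 3-week females and 3-month males, and distal convoluted tubule markers in 5 of 6, 4 of 5 and 3 of 3, where 8.52%, 10.4% and 27.8% of all tested genes fell. Intercalated cell markers fell in 3 of 4, 2 of 3 and 0 of 1, podocyte markers in 3 of 4, 1 of 4 and 3 of 4, and endothelial markers in 2 of 4, 4 of 4 and 1 of 2. Tubular injury genes rose in 9 of 11, 9 of 11 and 9 of 9, with medians of 1.42, 1.50 and 3.57 on the log2 scale. Immune markers rose in 5 of 7, 5 of 7 and 6 of 6, where 8.81%, 8.29% and 29.8% of all tested genes rose. Markers of the thin limbs of the loop, the adjoining segments, rose in 0 of 5, 1 of 3 and 2 of 3 tested cases and fell in 1 of 5, 0 of 3 and 1 of 3. Among 3-month males the authors' deposited table lists 7.45 ± 0.70 for Slc14a2, a urea transporter, and 7.59 ± 0.67 for Sptssb, both without a p-value, and 3.94 ± 0.31 (adjusted p = 3.78e-35) for Bst1. In each list 0 markers had a mean of 0, levels per genotype were not summed, and the part of other cells in the values of the 9 genes was not tested.

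The genes with the most similar fold changes differed for each of the 5 genes examined. Likeness was the Euclidean distance over the 3 log2 fold changes, among 10669 genes with at least 5 normalized counts per 1e6 in each table. Nearest to Umod were Ndufaf7 at 0.02, Cnnm4 at 0.10 and Alkbh7 at 0.12. Nearest to Slc12a1 were Myom2 at 0.16, Syt12 at 0.18 and Tha1 at 0.20, and nearest to Cldn10 were Inpp5j at 0.20, Mtfp1 at 0.29 and Ggct at 0.31. Egf lay nearest to Slc5a2 at 0.30, Scn4b at 0.75 and Gcgr at 0.75, the first of them a glucose transporter of the proximal tubule. Tmem207, itself under the level filter at 3 months, had distant neighbours only, Aqp6 at 1.62, Atp4a at 1.70 and Klk1 at 2.40. These distances rest on 3 values a gene, some of them without a p-value.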

How the data were processed

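Polyadenylated kidney RNA was sequenced from stranded libraries, per the labels' protocols, and 15 samples were grouped by their titles. The submitters' processing notes name mm10, STAR, HOMER and DESeq2, with versions not given in the sources used here. Deposited were the authors' 3 comparisons, each a table of 23420 rows, from which 27 symbols that a spreadsheet had made into dates were dropped. Per the file headers, the authors give the mean normalized count as a signal, a log2 value for the fold change with its error, a p-value with its adjusted p-value, and a status. Normalization was separate for each table. Errors at low means were smaller than such counts allow without moderation of the fold changes towards 0. Ctxn2, with a mean of 0.865 in 3-week males, was at -0.06 ± 0.20. The degree of moderation can differ between tables, and its part in the differences between tables was not tested. No depth per library is known beyond the sums of means, and no count model was fitted.

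The members and lists were chosen with earlier results of these data known. Calls rest on the authors' adjusted p (DESeq2 with Benjamini-Hochberg adjustment). Text names the 9 genes, Esrrg, up to 5 genes of each of 6 lists with the smallest p in any table, genes that adjoin or overlap a member, and the 3 genes nearest in fold change to 5 members. Not every gene so chosen is reported here. Differences between tables were divided by the root of the summed squared errors, with a 2-sided normal p adjusted over all genes. Its computation was checked on data simulated with the normal errors that the test assumes. That check cannot show how well the test suits these tables. Intervals are 95% normal intervals from the deposited errors. Coordinates and exon lengths come from GENCODE M21. Alternatives were subtraction of the median, scaling to total counts, a threshold of 0.01, outliers kept, a mean of at least 50 and no filter on low means. Python 3.11.15, pandas 2.3.3, numpy 2.4.6, scipy 1.17.1 and matplotlib 3.10.9 were used.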

Additional observations from a re-analysis of the deposited data

Results flagged for a closer look

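The genotype effect in males differed between 3 months and 3 weeks, by the test of the difference itself, for 11 of the 16 genes named from the lists around the thick ascending limb that had a p-value in both tables. These were named for their small p in one of the tables, so their share cannot be read against the 27.7% of all 12355 genes that differed. Cldn8, Gcgr, Adam10, Esrra and Irx3 did not pass. The 3 months minus 3 weeks difference of the log2 fold changes was 2.01 for Cldn4, 1.73 for Cldn3, 1.57 for Cldn7 and 1.08 for Cgn, all junction genes. It was 2.23 for Muc1, 1.50 for Fam111a, 1.11 for Mal and 1.00 for Maged2. It was 1.09 for Ptges and 1.67 for Oxtr, whose adjusted p of 0.0461 was the highest of the 11. Slc9a2 differed the other way, by -1.99. The adjusted p-values of the other 10 lay between 3.33e-20 and 0.0103. None of the 9 genes is among these 11, and only Cldn10 had a p-value in both tables.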

How the results depend on the processing

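Of 102 results of the 9 genes under the alternatives, 98 kept their direction and their side of the threshold. Only subtraction of the median and scaling to total counts change a fold change. The other alternatives leave it as deposited, so its direction was fixed there and only its call could change. Umod in 3-week females lost its call in 3. It stayed at -0.38 at a threshold of 0.01 and with no filter on low means (adjusted p = 0.0542). It came to -0.23 with fold changes scaled to total counts (adjusted p = 0.246). Cldn16 in 3-week males came to 0.01 with that scaling. Scaling to total counts added 0.18, 0.15 and 0.49 to the log2 fold changes of 3-week males, 3-week females and 3-month males. These constants come from group sums implied by mean and fold change, with the library numbers of the steps. For both tables of males those numbers differ from the labels. With it 2129 of 2830, 2446 of 3305 and 7107 of 8462 calls had a positive sign, against 1291 of 2540, 1173 of 2651 and 3819 of 7382 as deposited. At 3 months 3 of the 9 genes instead of 1 were called lower with outliers kept and with no filter on low means. The alternative without a filter keeps outliers as well, and none of the 9 had a low mean. At 3 weeks the count was 6 or 7 in males and 5 to 7 in females over 6 alternatives. With outliers kept, 2 genes instead of 0 differed between the sexes, neither of them among the 9, and 1 of the 9 instead of 0 differed between the ages. This was Tmem207, by 3.08 ± 0.70 for 3 months minus 3 weeks (SE; adjusted p = 0.000136). At a threshold of 0.01, 2190 instead of 3418 genes differed between the ages. Counts of the lists under these alternatives were also chosen after seeing the data. No paired analysis was possible because the labels give no shared replicate numbers and the tables hold no value per library. For the same reason no library was left out in turn. Precision is limited by few libraries a table and, at 3 months, by the missing p-values.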
